A study of Rattus norvegicus with 4 samples.

Results

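The genes described here encode the enzymes and transporters of glycolysis and a group of genes switched on when oxygen is low. They were chosen by name, 34 in all, and 33 of them had a probe set that the platform's annotation gives to 1 gene symbol, out of 14218 genes with such a probe set. A probe set is the group of short probes on an Affymetrix array that together report 1 transcript, and each gene was read through its brightest one. Pkm, the muscle pyruvate kinase that completes glycolysis, is named together with a pseudogene by its probe set and was not analysed here. Hk2 and Car9 lay in the dimmest 30% of probe sets (a mean under 4.77 log2 over the 4 arrays) and were not tested, which left 31 members among 11492 tested genes.

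The arrays hold RNA of neurospheres, floating clusters of cells grown from retina that was dissociated from embryonic day 18 Sprague Dawley rats. Of 4 samples, 2 received EGF alone (epidermal growth factor, a mitogen for neural progenitors). The other 2 received the same factor plus endothelial cell conditioned medium (ECCM), so both groups had EGF. Retinae of several embryos were pooled, and a further pool gave the biological replicates, so each array reports a mixed culture from many animals. Neither the source of the endothelial cells nor the oxygen level is stated in the labels. The comparison asks how conditioned medium changes these genes in spheres that already receive EGF. In such bulk RNA, fewer cells of a type and less RNA per cell cannot be told apart.

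Glycolysis splits glucose into pyruvate. Lactate dehydrogenase then turns pyruvate into lactate, or pyruvate enters the mitochondria through pyruvate dehydrogenase, which the pyruvate dehydrogenase kinases hold back. Several steps have isoforms that differ between tissues, and the retina is known for making much lactate even with oxygen, above all in photoreceptors. HIF1, the hypoxia-inducible factor, is destroyed while prolyl hydroxylases sense oxygen, and when oxygen falls it raises many glycolytic genes together with genes of mitophagy, vessel growth and collagen processing.

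The deposited log2 values were not equalised between arrays, with medians of 6.03 and 6.25 in the EGF arrays and 6.84 and 6.56 with conditioned medium. Values are therefore given after quantile normalization, which gives all 4 arrays the same distribution, and every difference is conditioned medium minus EGF alone with the standard error (SE) and Benjamini-Hochberg adjusted p from limma over all 11492 genes. The median difference of all genes tested was 0.00 log2 on this scale, 0.40 as deposited and -0.16 with arrays centred on their medians. A gene is said to have risen or fallen only if its adjusted p was under 0.05 in the same direction on these 3 scales. The 18 probe sets for the bacterial and phage controls added to each hybridization differed by 0.14 log2 as deposited and by -0.18 log2 after quantile normalization. As signs of RNA quality, 3′ minus 5′ signal was compared in the array's own control genes, and it differed between groups by -0.58 log2 for actin, -0.12 log2 for Gapdh and 0.23 log2 for hexokinase.

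After quantile normalization the main forms of the enzymes from aldolase to enolase differed little between the cultures, while isoforms of several steps differed in opposite directions. Pfkp and Ldhb rose, as did the hypoxia response genes Adm and P4ha2, and Ndrg1 fell. After quantile normalization alone, Slc2a1 and Slc16a1 were also higher, and Ldha, Eno2, Slc2a3, Pfkm and Pfkl were lower. Of the 31 members, 4 rose (12.9%, against 9.12% of all genes tested) and 1 fell (3.23% against 1.78%). Adm, 1 of the 4, passed the filter through its conditioned-medium arrays alone. After quantile normalization alone, 6 were higher (19.4% against 16.5%) and 6 lower (19.4% against 14.6%). The 2 groups did not overlap for 20 members (64.5%), against 66.2% of all genes, so these counts lay near those of the array as a whole. The split of higher and lower members depended on the scale, at 11 higher and 1 lower as deposited (40.4% and 1.78% of all genes) and 5 higher and 14 lower with median-centred arrays (10.2% and 32.2%). With arrays centred on the hybridization controls it was 9 higher and 3 lower (35.7% and 4.63% of all genes). The median difference of the members was 0.03 log2, and 0.32 log2 as deposited.

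**Figure D1:**
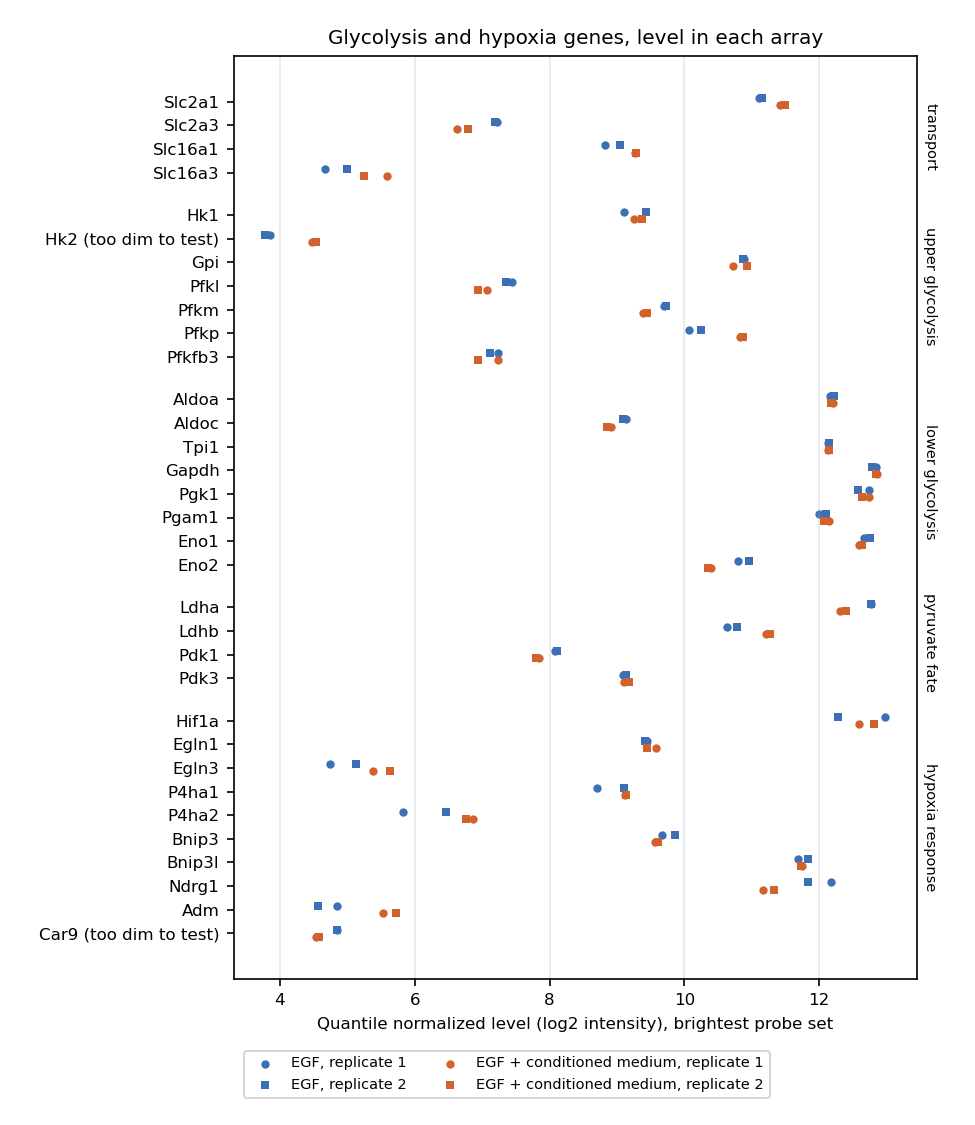
Quantile normalized level (log2 intensity) of the brightest probe set of each gene, with 1 point per array, blue for EGF alone and orange for EGF with conditioned medium, ordered by role. Levels may be set side by side within a gene only, and Pfkp, Ldhb, Adm and Ndrg1 show groups that stand apart while Aldoa, Tpi1 and Gapdh overlap.

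Glucose enters through the facilitative transporters Slc2a1 (GLUT1) and Slc2a3 (GLUT3, the main neuronal form), and lactate leaves or enters through Slc16a1 (MCT1) and Slc16a3 (MCT4, a form of cells that export lactate). Slc2a1 stood at 11.11 and 11.15 log2 with EGF and at 11.41 and 11.49 log2 with conditioned medium. Both conditioned-medium arrays were higher, and the difference of 0.32 ± 0.07 log2 (SE) was past the threshold after quantile normalization (adjusted p = 0.00413) but not with median-centred arrays (0.07 log2, adjusted p = 0.565). Slc2a3 stood at 7.23 and 7.19 log2 with EGF and at 6.63 and 6.78 log2 with conditioned medium, lower in both (-0.50 ± 0.14 SE, adjusted p = 0.0206), but its deposited difference was 0.01 log2 (adjusted p = 0.980). A second Slc2a3 probe set, under the limit for dim ones, differed the other way (0.30 log2).

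Slc16a1 stood at 8.82 and 9.05 log2 with EGF and at 9.26 and 9.28 log2 with conditioned medium. The groups did not overlap, and the difference of 0.34 ± 0.10 log2 (SE) had an adjusted p of 0.0250, again not kept with median-centred arrays (0.11 log2, adjusted p = 0.409). Slc16a3 was dim, at 4.67 and 4.99 log2 with EGF and 5.58 and 5.25 log2 with conditioned medium (0.58 ± 0.27 SE, adjusted p = 0.130). It was past the threshold as deposited (1.35 log2, adjusted p = 0.00805) and with arrays centred on the hybridization controls (1.20 log2, adjusted p = 0.00622). Its EGF mean as deposited, 4.43 log2, was under the limit for dim probe sets, as were those of Adm and Egln3, so these 3 genes entered the test through their conditioned-medium arrays. The Slc2a1 and Slc16a1 calls were lost without an intensity trend in the fit, and the Slc2a3 and Slc16a1 calls with the mean of all probe sets. Without EGF replicate 1 or conditioned-medium replicate 2 the Slc2a1 call was lost, without any 1 array the Slc2a3 call, and without EGF replicate 1 or either conditioned-medium array the Slc16a1 call. Over the 4 arrays left out in turn, their differences ranged from 0.29 to 0.36, from -0.58 to -0.42 and from 0.23 to 0.45 log2.

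Among the enzymes of the first steps of glycolysis, phosphofructokinase commits sugar to the pathway and is built from the liver, muscle and platelet subunits Pfkl, Pfkm and Pfkp. Pfkp stood at 10.06 and 10.24 log2 with EGF and at 10.83 and 10.87 log2 with conditioned medium. Both arrays with conditioned medium lay well above both EGF arrays, and Pfkp rose 1.62-fold (0.70 ± 0.08 SE, adjusted p = 1.16e-04). This was 1.02 log2 as deposited and 0.45 log2 with median-centred arrays, and Pfkp kept its call on all 3 scales in each of the 10 alternative fits, including those without any 1 array.

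The other subunits went the opposite way after quantile normalization. Pfkm stood at 9.69 and 9.72 log2 with EGF and at 9.39 and 9.44 log2 with conditioned medium (-0.29 ± 0.08 SE, adjusted p = 0.0204), and Pfkl at 7.44 and 7.35 against 7.08 and 6.95 log2 (-0.38 ± 0.13 SE, adjusted p = 0.0491). Both were lower in both arrays, but neither passed as deposited, where the differences were 0.04 and 0.09 log2. The other Pfkm probe sets differed by -0.13 and 0.05 log2, so the Pfkm probe sets disagreed. Without any 1 of the 4 arrays neither kept its call, with differences from -0.32 to -0.27 log2 for Pfkm and from -0.45 to -0.32 log2 for Pfkl.

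Hexokinase traps glucose in the cell as glucose 6-phosphate. Hk1, its housekeeping form, stood at 9.11 and 9.43 log2 with EGF and at 9.25 and 9.37 log2 with conditioned medium, with overlapping groups (0.04 ± 0.11 SE, adjusted p = 0.823). The inducible form Hk2 was too dim to be tested, at 3.86 and 3.78 against 4.47 and 4.53 log2. Gpi, the isomerase of the next step, differed by -0.05 ± 0.08 log2 (SE), and Pfkfb3, which makes the activator of phosphofructokinase, by -0.09 ± 0.15 log2 (SE). Neither passed on this scale, Gpi was called lower with median-centred arrays (-0.31 log2, adjusted p = 0.0433), and the brighter pair of the 3 Pfkfb3 probe sets differed in sign (-0.09 and 0.12 log2).

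Of the 8 tested genes from aldolase to enolase, 6 are the main forms of their step and differed little after quantile normalization, while Eno2 was lower and Aldoc did not pass. Aldoa (aldolase A), Tpi1 (triose phosphate isomerase), Gapdh, Pgk1 (phosphoglycerate kinase), Pgam1 (phosphoglycerate mutase) and Eno1 (enolase 1) all lay between 11.99 and 12.85 log2 in every array. Their differences ran from -0.10 to 0.06 log2, and 0 of these 6 passed in limma (adjusted p = 0.243 to 1.000, and 0 at an unadjusted p under 0.05), whereas they were 0.22 to 0.35 log2 as deposited and -0.35 to -0.21 log2 with median-centred arrays. On those scales Pgam1 was called higher as deposited (adjusted p = 0.0492), and Aldoa, Tpi1 and Eno1 were called lower with median-centred arrays. Tpi1 stood at 12.13 and 12.14 log2 with EGF and 12.14 and 12.14 log2 with conditioned medium. Gapdh was read from the array's own control probe sets, at 12.84 and 12.79 against 12.85 and 12.84 log2 for the 3′ set, with differences of 0.03, 0.01 and 0.14 log2 for the 3′, middle and 5′ sets. For Pgk1 a second bright probe set differed by 0.25 log2, against 0.03 ± 0.07 log2 (SE) for the brightest.

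Eno2, the neuronal enolase, stood at 10.80 and 10.96 log2 with EGF and at 10.40 and 10.36 log2 with conditioned medium. Both conditioned-medium arrays were below both EGF arrays (-0.50 ± 0.08 SE, adjusted p = 7.92e-04), and the gene was also lower with median-centred arrays (-0.75 log2), but the deposited difference of -0.18 log2 did not pass (adjusted p = 0.353). Aldoc, the brain aldolase, stood at 9.13 and 9.08 against 8.92 and 8.86 log2 (-0.22 ± 0.09 SE, adjusted p = 0.0910).

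Lactate dehydrogenase is a tetramer of the subunits Ldha, typical of tissues that make lactate, and Ldhb, typical of tissues that use it. Ldha stood at 12.77 and 12.77 log2 with EGF and at 12.31 and 12.40 log2 with conditioned medium. Both arrays with conditioned medium were lower, by 1.34-fold (-0.42 ± 0.06 SE, adjusted p = 4.10e-04), and the difference was -0.69 log2 with median-centred arrays and -0.27 log2 with arrays centred on the hybridization controls, where it also passed. The deposited difference was -0.12 log2 and did not pass (adjusted p = 0.487). Like Eno2, Ldha kept its call after quantile normalization in each of the 10 alternative fits.

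Ldhb differed the other way, from 10.63 and 10.78 log2 with EGF to 11.21 and 11.28 log2 with conditioned medium. The groups stood apart, and Ldhb rose 1.45-fold (0.54 ± 0.08 SE, adjusted p = 4.09e-04), or 0.85 log2 as deposited and 0.29 log2 with median-centred arrays. The call on all 3 scales was lost without an intensity trend in the fit and with the replicate as a block. It was also lost without EGF replicate 1, EGF replicate 2 or conditioned-medium replicate 2. With 1 array left out the difference stayed between 0.46 and 0.61 log2. The Ldhb call after quantile normalization alone was kept in all of these fits. Of the kinases that close the entry of pyruvate into mitochondria, Pdk1, a HIF1 target, stood at 8.08 and 8.11 against 7.85 and 7.80 log2 (-0.27 ± 0.11 SE, adjusted p = 0.0767). Its groups did not overlap but it did not pass. It was called lower with median-centred arrays (-0.44 log2, adjusted p = 0.00837), its deposited difference was 0.12 log2, and a second probe set differed by -0.43 log2. Pdk3 differed by 0.03 ± 0.09 log2 (SE), with overlapping groups.

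**Figure D2:**
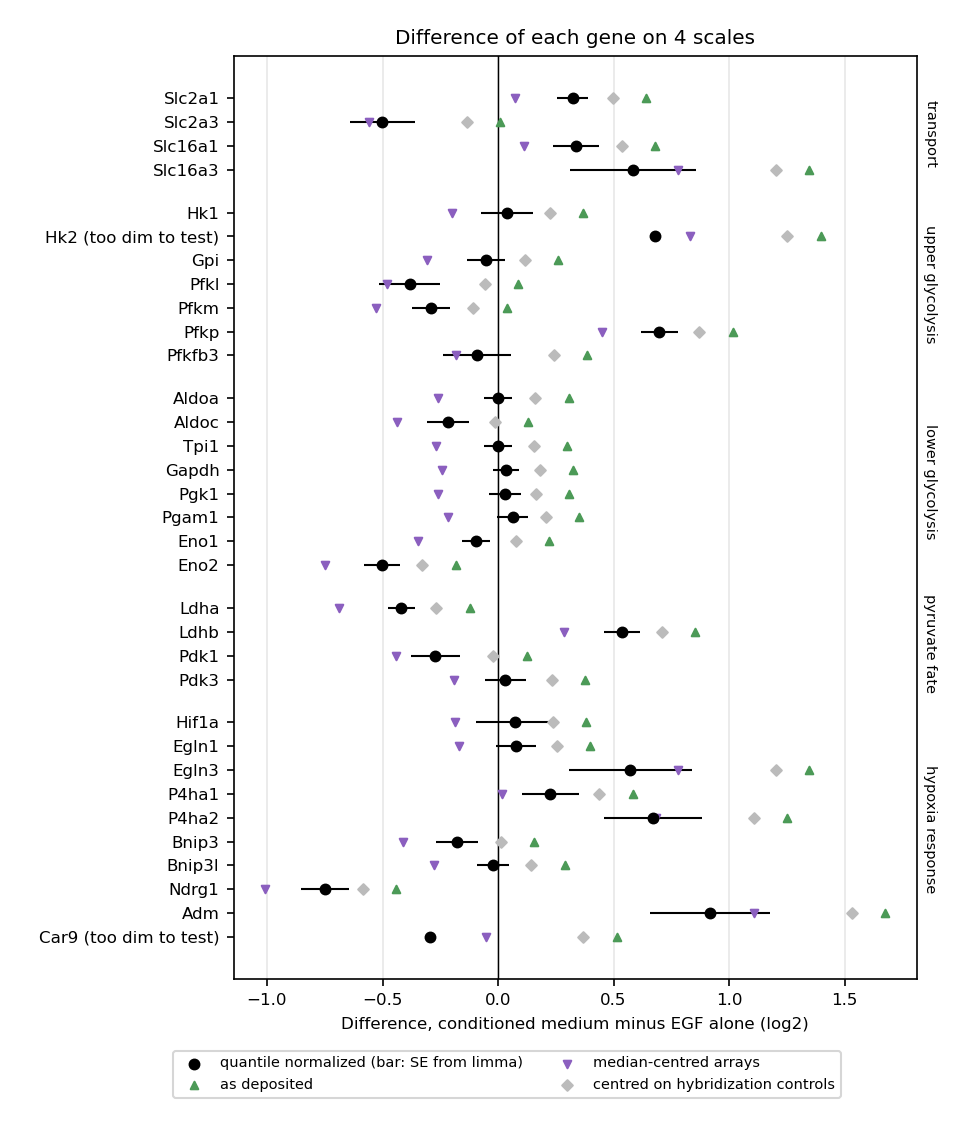
Difference between conditioned medium and EGF alone (log2) for each gene on 4 scales, with black points for quantile normalized values and bars for their SE from limma. The 3 centrings move all genes in 1 direction, so that Aldoa changes sign, whereas Pfkp and Ldhb stay right of 0 and Ldha, Eno2 and Ndrg1 left of 0 on all 4.

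Because a shift of a whole array cancels within it, the balance of isoforms was read as the difference between the 2 probe sets in the same array. Quantile normalization moves bright and dim probe sets by different amounts, which does not cancel, so deposited shifts are given beside most pairs. Only the change of this difference between groups is of interest, since probes of different genes do not report levels on 1 scale. The 12 pairs were chosen with results of these arrays known, so their values are a description. In 11 of them the groups did not overlap, both after quantile normalization and as deposited, among them Hk2 minus Hk1, which holds an untested gene. Over all pairs of tested genes, 67.4% did not overlap. With 2 arrays against 2 the exact permutation test (two-sided) cannot go below p = 0.333, so no pair could pass, and the value adjusted over the 12 pairs was 0.363 for these 11 pairs.

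Ldha minus Ldhb was 2.15 and 1.99 log2 with EGF and 1.10 and 1.13 log2 with conditioned medium. Both conditioned-medium arrays lay toward Ldhb, by -0.95 log2 (1.94-fold), or -0.98 log2 as deposited (exact permutation p = 0.333). Pfkp minus Pfkm was 0.37 and 0.52 log2 with EGF and 1.44 and 1.43 log2 with conditioned medium, a 1.98-fold shift toward the platelet subunit (0.99 log2, and 0.98 log2 as deposited). Its size depends on the brightest Pfkm probe set, which differed by -0.29 log2, against -0.13 and 0.05 log2 for the other Pfkm probe sets. For the Ldha and Pfkp pairs the SD between replicates was 0.11 and 0.10 log2 with EGF and 0.02 and 0.01 log2 with conditioned medium. With n = 2 per group and pairs chosen with results known, these SDs give no test of the shifts. Slc2a1 minus Slc2a3 was 3.88 and 3.96 against 4.78 and 4.70 log2, a difference of 0.82 log2 toward GLUT1, or 0.63 log2 as deposited and 0.42 log2 with the mean of all probe sets.

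After quantile normalization the remaining pairs differed less or rested on a dim gene. Hk2 minus Hk1 differed by 0.64 log2 (1.03 as deposited) and Egln3 minus Egln1 by 0.50 log2 (0.95 as deposited). P4ha1 minus P4ha2 differed by -0.44 log2 (-0.67 as deposited) and Bnip3 minus Bnip3l by -0.16 log2 (-0.13 as deposited). Egln3 minus Egln1 ranged from 0.29 to 0.70 log2 with 1 array left out, being low without EGF replicate 1 or conditioned-medium replicate 2. Eno1 minus Eno2 was 1.87 and 1.79 log2 with EGF and 2.19 and 2.28 log2 with conditioned medium, a difference of 0.41 log2 away from the neuronal form on both scales. Aldoa minus Aldoc differed the same way by 0.22 log2 (0.18 log2 as deposited), and Pdk1 minus Pdk3 differed by -0.30 log2. Pfkl minus Pfkm was the pair with overlapping groups, at -2.25 and -2.37 against -2.31 and -2.50 log2, and its sign turned as deposited (-0.09 and 0.05 log2). Slc16a3 minus Slc16a1 differed by 0.25 log2 (0.67 log2 as deposited), and by 0.07 log2 without conditioned-medium replicate 1.

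**Figure D3:**
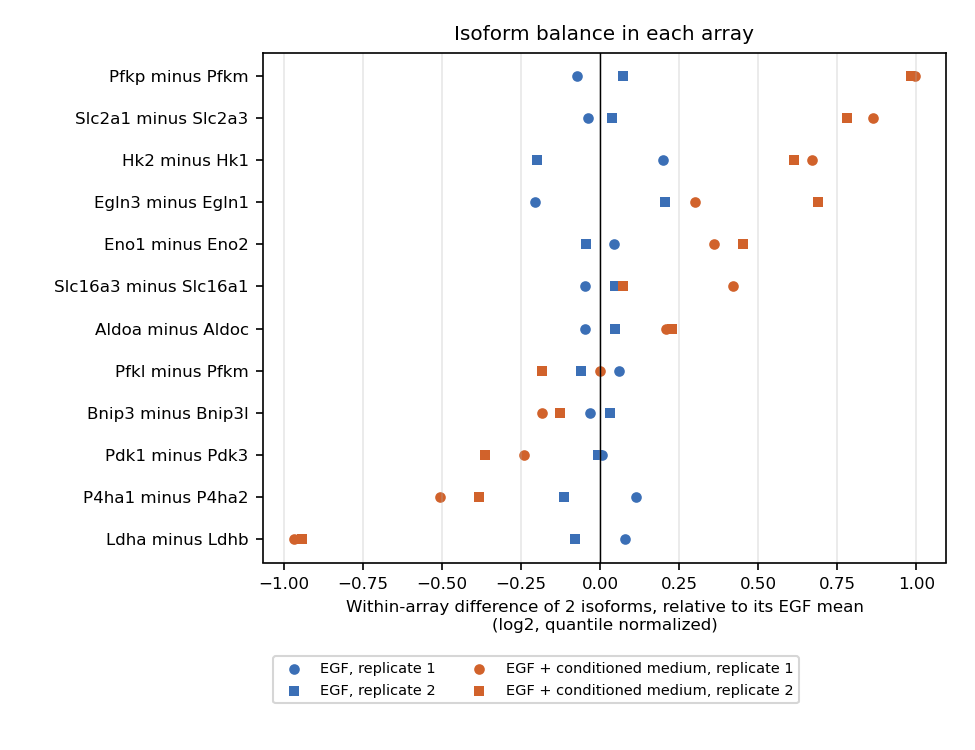
Difference between 2 isoforms of 1 step in each array, relative to the mean of the EGF arrays (log2, quantile normalized), blue for EGF alone and orange for EGF with conditioned medium. The Pfkp, Slc2a1 and Ldha pairs stand 0.82 to 0.99 log2 from the EGF arrays in either direction, and only Pfkl minus Pfkm overlaps.

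The oxygen response begins with Hif1a, the regulated subunit of HIF1, which is controlled mainly as a protein. Its RNA stood at 12.98 and 12.27 log2 with EGF and at 12.59 and 12.81 log2 with conditioned medium. The EGF arrays enclosed the others (0.07 ± 0.17 SE, adjusted p = 0.774), and the difference ran from -0.28 to 0.43 log2 when 1 array was left out. It was called higher as deposited (0.38 log2, adjusted p = 0.0273). Egln1, the main oxygen-sensing prolyl hydroxylase, differed by 0.08 ± 0.09 log2 (SE). Egln3, the hydroxylase that HIF1 itself induces, was dim, at 4.74 and 5.13 against 5.38 and 5.64 log2. It missed the threshold after quantile normalization (0.57 ± 0.27 SE, adjusted p = 0.127) and passed as deposited (adjusted p = 0.00605) and with median-centred arrays (adjusted p = 0.0469).

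Adm encodes adrenomedullin, a peptide that widens and stabilises vessels. It stood at 4.85 and 4.57 log2 with EGF and at 5.53 and 5.73 log2 with conditioned medium. Both conditioned-medium arrays were higher, and Adm rose by 0.92 ± 0.26 log2 (SE, adjusted p = 0.0215). With its deposited EGF mean at 4.30 log2, under the limit for dim probe sets, no fold is given. The call on all 3 scales was lost without any 1 of the 4 arrays, with differences of 0.77 to 1.06 log2.

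The collagen prolyl hydroxylases P4ha1 and P4ha2 modify collagen chains so that they fold. P4ha2 stood at 5.83 and 6.46 log2 with EGF and at 6.87 and 6.76 log2 with conditioned medium, and rose 1.59-fold (0.67 ± 0.21 SE, adjusted p = 0.0331). The EGF arrays differed from each other almost as much as the groups did. Without EGF replicate 1 or either conditioned-medium array the call on all 3 scales was lost (0.35 to 0.99 log2 with 1 array left out). It was also lost without an intensity trend and without the filter on dim probe sets. A second P4ha2 probe set differed by 0.47 log2 with overlapping groups. P4ha1 stood at 8.70 and 9.11 against 9.12 and 9.14 log2 (0.23 ± 0.12 SE, adjusted p = 0.194), and passed as deposited (adjusted p = 0.00708) and with arrays centred on the hybridization controls (0.44 log2, adjusted p = 0.00631).

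Ndrg1, a stress-response gene that HIF1 and other signals induce, went the other way. It stood at 12.17 and 11.83 log2 with EGF and at 11.16 and 11.33 log2 with conditioned medium. Both conditioned-medium arrays were lower, and Ndrg1 fell 1.68-fold (-0.75 ± 0.10 SE, adjusted p = 3.34e-04), or by 0.44 log2 as deposited (adjusted p = 0.0162). A second probe set differed by -0.54 log2 after quantile normalization, but by -0.13 log2 with overlapping groups as deposited. The call on all 3 scales was lost without any 1 of the 4 arrays, with differences of -0.92 to -0.58 log2. It was also lost with the replicate as a block, with the mean of all probe sets and without an intensity trend. The Ndrg1 call after quantile normalization alone was kept in each of the 10 alternative fits.

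The mitophagy receptors Bnip3 and Bnip3l, which HIF1 induces in many cells, did not pass after quantile normalization, and both were called lower with median-centred arrays (-0.41 log2, adjusted p = 0.00696, and -0.28 log2, adjusted p = 0.0287). Bnip3 stood at 9.66 and 9.87 against 9.56 and 9.61 log2 (-0.18 ± 0.09 SE, adjusted p = 0.170), and both Bnip3l probe sets differed by -0.02 log2. Car9, the carbonic anhydrase often used as a marker of hypoxia, was too dim to be tested at 4.85 and 4.84 against 4.53 and 4.58 log2. Of the 9 tested genes of the oxygen response, 2 rose and 1 fell, against 9.12% and 1.78% of all genes, and 6 did not pass on the quantile scale.

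Promoters of genes that HIF1 can bind often hold the core words ACGTG or GCGTG, and RefSeq promoter windows of 4 genes, picked after their values were seen to set both lactate dehydrogenase subunits beside risen genes, are shown with those words, on either strand, in capitals. Each window runs from 250 bases before the annotated start to 50 after it, 5′ to 3′ on the gene's strand, in build GRCr8. Ldha lies at chr1:106507842-106508141 on the plus strand, Ldhb at chr4:177177359-177177658 on the minus strand, Pfkp at chr17:68639563-68639862 on the plus strand and P4ha2 at chr10:38743644-38743943 on the plus strand.
Ldha: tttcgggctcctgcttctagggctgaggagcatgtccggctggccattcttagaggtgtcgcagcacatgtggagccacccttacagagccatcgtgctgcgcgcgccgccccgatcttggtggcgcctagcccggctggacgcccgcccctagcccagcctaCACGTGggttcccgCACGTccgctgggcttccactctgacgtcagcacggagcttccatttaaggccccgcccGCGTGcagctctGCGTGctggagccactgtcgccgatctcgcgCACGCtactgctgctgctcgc
Ldhb: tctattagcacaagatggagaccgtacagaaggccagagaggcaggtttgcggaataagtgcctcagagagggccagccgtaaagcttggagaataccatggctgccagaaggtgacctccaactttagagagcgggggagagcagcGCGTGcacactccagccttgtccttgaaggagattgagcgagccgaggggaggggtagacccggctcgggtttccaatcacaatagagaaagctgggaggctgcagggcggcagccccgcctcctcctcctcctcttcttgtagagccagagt
Pfkp: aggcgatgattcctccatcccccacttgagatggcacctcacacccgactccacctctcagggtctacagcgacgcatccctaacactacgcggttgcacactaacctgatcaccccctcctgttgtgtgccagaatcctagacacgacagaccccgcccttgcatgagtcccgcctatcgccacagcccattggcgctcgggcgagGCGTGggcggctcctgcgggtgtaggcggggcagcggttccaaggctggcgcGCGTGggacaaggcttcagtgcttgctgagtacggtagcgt
P4ha2: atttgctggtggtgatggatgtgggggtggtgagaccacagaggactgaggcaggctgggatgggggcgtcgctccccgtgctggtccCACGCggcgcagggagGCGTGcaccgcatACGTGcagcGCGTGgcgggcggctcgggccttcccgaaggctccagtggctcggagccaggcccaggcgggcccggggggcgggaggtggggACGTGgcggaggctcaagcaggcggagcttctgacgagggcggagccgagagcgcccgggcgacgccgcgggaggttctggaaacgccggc
The Ldha window holds 6 matches and P4ha2 5, against 2 in Pfkp and 1 in Ldhb. A match within CACGTG, which Ldha holds once, counts on both strands. Of the 33 members 29 had a window, in 33 windows, and Bnip3l, Ndrg1, Pgk1 and Slc2a3 had none in the table. Either word was found in 25 of the 33 windows (75.8%), against 41.6% of all 33469 windows and 64.0% of windows with GC content between 57.3% and 69.3%, the middle range of the members. ACGTG was in 63.6% of the member windows against 19.3% of all windows, and GCGTG in 51.5% against 29.7%. In the windows of that GC range ACGTG was in 25.8% and GCGTG in 52.6%, which is near the GCGTG share of the member windows. The member shares take in all 33 member windows, also those outside that range, so the 2 sets are not alike in GC content. Ldha, with the most matches of the 4, was lower with conditioned medium after quantile normalization, and P4ha2, with 5, rose. Adm, which rose, had 0 matches in its window, while Slc2a1 and Slc16a1, higher after quantile normalization, had 4 each. Whether matches go with the direction of a gene was not tested. A match is a stretch of letters and does not show binding.

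Genes around the pathway were taken from lists of companions. Of 12 other glycolytic isoforms and regulators, 0 rose and 0 fell in limma on all 3 scales, with 3 lower and 1 higher on the quantile scale (3 and 2 at an unadjusted p under 0.05). Of 25 genes of pyruvate entry and the TCA cycle, 2 rose (8% against 9.12% of all genes). 0 fell in limma (5 were lower at an unadjusted p under 0.05). Suclg2, a subunit of succinate-CoA ligase, rose (0.69 ± 0.09 SE, adjusted p = 2.91e-04), as did Pdk4, a kinase of pyruvate dehydrogenase (0.78 ± 0.27 SE, adjusted p = 0.0473). Pdk4 had a deposited EGF mean of 4.44 log2 and entered the test through its conditioned-medium arrays. With the replicate as a block, or any 1 array left out, the count was 1. The list's median was -0.08 log2, against 0.00 for all genes.

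In the pentose phosphate pathway, 1 of 6 genes rose (16.7% against 9.12% of all genes), the isomerase Rpia (0.54 ± 0.10 SE, adjusted p = 0.00170). Leaving out EGF replicate 2 or either conditioned-medium array gave 0. Of 9 genes of glycogen, gluconeogenesis and hexosamine synthesis, 2 rose (22.2% against 9.12% of all genes). Pygl, the liver glycogen phosphorylase, stood at 7.87 and 8.08 log2 with EGF and at 9.66 and 9.58 log2 with conditioned medium, a 3.13-fold rise (1.65 ± 0.10 SE, adjusted p = 1.99e-06). Gfpt2, a first enzyme of hexosamine synthesis, rose by 0.67 ± 0.16 log2 (SE). Leaving out EGF replicate 1 or either conditioned-medium array gave 1.

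Of 10 regulators of oxygen sensing, 0 rose and 0 fell in limma on all 3 scales, with 2 lower and 0 higher after quantile normalization (3 and 0 at an unadjusted p under 0.05). Of 17 other targets of hypoxia, 4 rose and 0 fell (23.5% against 9.12% of all genes, with 4 lower at an unadjusted p under 0.05). These were Anxa2, a membrane-binding annexin (2.08 ± 0.10 SE), Bhlhe40, a repressor of transcription (1.63 ± 0.29 SE), Hmox1, the haem oxygenase also induced by oxidative stress (1.20 ± 0.13 SE), and Plod2, a collagen lysyl hydroxylase (0.70 ± 0.08 SE). On the quantile scale 5 of the 17 were higher and 4 lower, so the list was divided. Bhlhe40 had a deposited EGF mean of 3.87 log2, under the limit for dim probe sets, and entered the test through its conditioned-medium arrays.

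**Figure D4:**
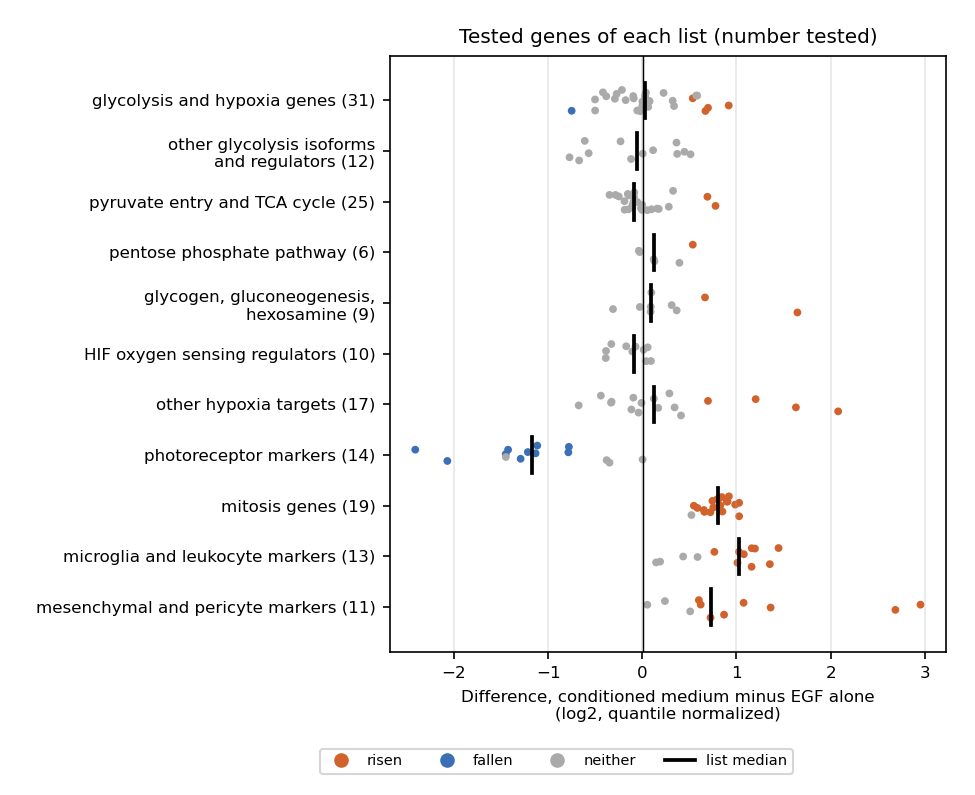
Differences between conditioned medium and EGF alone (log2, quantile normalized) for the tested genes of each list, 1 point per gene, orange for risen, blue for fallen, with a black bar at the list median and a vertical line at the median of all genes. The metabolic lists lie around 0 with a few risen genes, the photoreceptor markers lie at a median of -1.17 and the mitosis genes at 0.81 log2.

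Marker genes of several cell types also differed between the groups. The counts below stand against 9.12% risen and 1.78% fallen among all genes tested. In the short endothelial, lens and astrocyte lists (22.2%, 33.3% and 28.6% risen) the shares rest on very few genes. Photoreceptor markers fell in 10 of 14 tested genes. The summed level of the list went from 14.84 to 14.88 log2 with EGF to 13.97 to 14.01 log2 with conditioned medium. Each sum in this paragraph takes in all listed genes on the array, untested dim ones included, and weighs most on the brightest probe sets. Mitosis genes rose in 18 of 19 (13.81 to 13.87 against 14.60 to 14.61 log2). Of microglia and leukocyte markers 9 of 13 rose, from 9.90 to 10.03 log2 to 10.86 to 10.92 log2, with Itgam and C1qb too dim to be tested, and leaving out conditioned-medium replicate 2 gave 5. Of mesenchymal and pericyte markers 8 of 11 rose, from 9.89 to 10.07 log2 to 11.32 to 11.34 log2, or 4 when EGF replicate 2 or conditioned-medium replicate 2 was left out and 3 when conditioned-medium replicate 1 was. A further 8, Dcn, Lum and Rgs5 among them, were too dim to be tested. Of endothelial markers 2 of 9 rose, with Pecam1, Tek and Tie1 among 7 that were too dim, and leaving out EGF replicate 2 or either conditioned-medium array gave 1. Lens markers rose in 3 of 9, or 1 when EGF replicate 1 or conditioned-medium replicate 2 was left out. Astrocyte markers rose in 2 of 7 and fell in 1. Without EGF replicate 2 or conditioned-medium replicate 2 just 1 rose, with any 1 array left out 0 fell, and 0 rose or fell with the mean of all probe sets. Of the risen markers, 4 of microglia, 2 of mesenchyme, 1 of endothelium and 1 of lens entered the test through their conditioned-medium arrays. The part of these cell types and of RNA quality in the differences of the glycolytic genes was not tested.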

How the data were processed

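Total RNA from 4 samples was hybridized to Affymetrix rat arrays. Per the labels, the authors made the deposited log2 values with RMA, run in GenePattern. Its version and its normalization step are not given in the sources used here. Of 31099 probe sets, 20832 had 1 gene symbol, 436 several and 9831 none. The probe set with the highest mean over the 4 arrays stood for each gene, and the 33 members all matched the RefSeq table of assembly GRCr8 by gene identifier.

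Deposited values were quantile normalized and fitted with limma 3.58.1 in R 4.3.3 (lmFit, eBayes with an intensity trend, two-sided, no block), and the fit was repeated on deposited and median-centred values. On deposited values, and with arrays centred on the hybridization controls, limma's prior took over the 2 residual degrees of freedom. The p-values there rest on the trend and not on the replicate spread of each gene. The prior also took over for median-centred values with the replicate as a block or an EGF array left out. The fit was tested on simulated data. Members, pairs, lists and the requirement of 3 scales were chosen with earlier results of these data known, and the values named are those of every member, of both genes of each pair, and of up to 4 risen or fallen genes per metabolic list. The labels call the samples biological replicates, and the number of arrays limits the precision. Alternatives were a replicate block, other filters on dim probe sets, the mean of all probe sets, no trend, other scales and each array left out. Centring on hybridization controls and the crossed pairing were added after seeing the data.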

Additional observations from a re-analysis of the deposited data

How the results depend on the processing

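Risen members numbered 4 (9.12% of all genes rose) and fell to 2, Adm and Pfkp, without an intensity trend (8.05%). Fewer rose with 1 array left out, where 1 group holds a single array, so no count is given. Fallen members numbered 1. They were 0 with the replicate as a block, with the mean of all probe sets and without a trend. Of all genes 0.244%, 1.32% and 1.13% fell there, against 1.78% in the main fit. Ndrg1 also lost its call on all 3 scales with any 1 array left out, but not its call after quantile normalization alone. Members higher after quantile normalization numbered 6 (16.5% of all genes), and 3 without a trend (12.2%) and 11 as deposited (40.4%). Fewer were higher without EGF replicate 1 or either conditioned-medium array. Members lower numbered 6, and 1 as deposited, 14 with median-centred arrays, 3 with arrays centred on the hybridization controls (Ldha, Eno2 and Ndrg1) and 3 with any 1 array left out. Among all genes, 14.6% were lower after quantile normalization and 1.78% on the deposited scale. Median centring gave 32.2% and centring on the hybridization controls 4.63%. The counts of lower members thus moved in the same direction as the whole array on these scales. As deposited, 11 tested members turned sign. Among those called after quantile normalization, Slc2a3 (0.0080 log2), Pfkl (0.088 log2) and Pfkm (0.037 log2) did so, and Aldoa was lower with median-centred arrays (-0.26 log2, adjusted p = 0.0385). The cause of these changes was not tested. Pfkl minus Pfkm turned to 0.050 log2 as deposited and with median-centred arrays, and ranged from -0.18 to 0.0012 log2 with 1 array left out. The other 11 pairs kept their direction in each alternative run.

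For the pairing, arrays of the same number were compared by their distance from the group mean, and correlated at -0.03 after quantile normalization and -0.12 as deposited, over 2 pairs. The design describes a further pool of embryos for both conditions, but no label ties the numbers to the pools, so whether they pair the samples is not known. With the replicate as a block, 3 members rose and 0 fell (8.93% and 0.244% of all genes, where 28 fell against 205 without the block). After quantile normalization 6 were higher and 5 lower (15.9% and 13.7% of all genes). With the crossed pairing, 4 rose and 2 fell (10.2% and 3.84% of all genes).

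Risen genes of pyruvate entry and the TCA cycle numbered 1, not 2, with the replicate block, with the mean of all probe sets and with any 1 array left out. Risen pentose phosphate genes numbered 0 with the mean of all probe sets and 0 to 1 with 1 array left out, and glycogen and hexosamine genes 1 to 2. With 1 array left out, risen markers numbered 5 to 8 for microglia, 3 to 6 for mesenchyme and 1 to 2 for endothelium, and with the dimmest 50% left out, which tests fewer genes, 4, 3 and 0. In that stricter filter, 4 of 5 tested microglia markers rose (80%, against 69.2% in the main fit). Of mesenchymal markers 3 of 3 rose (100% against 72.7%), and of endothelial markers 0 of 2 (against 22.2%). Of all genes tested there, 9.23% rose. Dim members (Hk2, Car9, and Adm, Egln3 and Slc16a3 in the EGF arrays) are limited by signal over background.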
